A study of Mus musculus with 6 samples.

Results

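The DNA replication and S phase genes are 41 genes taken by symbol from the deposited count table. They cover origin licensing, the replicative helicase, the polymerases, the sliding clamp and its loaders, single-strand binding, Okazaki fragment processing, nucleotide supply and a few S phase factors. All 41 symbols were among the 30438 of the table, and all 41 passed the filter on low counts, which left 14618 genes to test. RNA was sequenced as poly(A)-selected libraries from HEI-OC1 cells, a conditionally immortalised line from the mouse organ of Corti, in 2 groups of 3 libraries. The control group was wild-type HEI-OC1 and the other group was a derivative labelled Nrf2 knockout. Both were grown in DMEM with 10% serum and penicillin-streptomycin at 33 °C and 10% CO2, with no other agent recorded. The study concerns cisplatin resistance in the knockout cells, and the comparison here is of the untreated lines. The method and position of the edit, and whether the knockout line is 1 clone, stand as not given in the sources used here. HEI-OC1 carries a temperature-sensitive SV40 large T antigen that is active at this growth temperature and drives proliferation, and the control cells carry it too.

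The library totals ran from 29130007 counts in Nrf2 KO replicate 1 to 51285343 counts in Nrf2 KO replicate 2. Nfe2l2, which encodes Nrf2, was at 74.2, 126.5 and 96.7 CPM (counts scaled to a common library total, with TMM factors) in control replicates 1, 2 and 3 and at 395.7, 235.6 and 204.5 CPM in the same numbers labelled Nrf2 KO. It was therefore higher, not lower, by 1.49 (SE 0.33) on the log2 scale (edgeR adjusted p = 0.0456, and 0.000371 to 0.202 over the alternatives). It missed the threshold without any 1 library other than Nrf2 KO replicate 1. With all libraries it also missed with upper-quartile scaling (edgeR adjusted p = 0.0526) and with library size alone (0.0593). Every direction below is stated by label, Nrf2 KO over control. Whole-gene counts cannot show a small edit. Replicate 1 of both groups stood apart from replicates 2 and 3 over the whole table, so the main results are given with and without these libraries. The labels call the cells cochlear stem cells: Sox2 and Sox10 of 11 supporting and prosensory markers, and Atoh1, Slc26a5, Pvalb and Calb2 of 10 hair cell markers, had 0 counts in all 6 libraries. Of the same lists, Jag1 (99.2 to 191 CPM), Fgfr3 (36.25 to 71.5 CPM), Cdkn1b (158 to 257 CPM), Sox9 (6.70 to 48.8 CPM), Myo6 (31.5 to 61.2 CPM) and Myo7a (1.08 to 29.97 CPM) passed the filter, and the others did not. The labels do not say whether libraries of a group came from separate cultures; if they did not, the p-values reflect technical spread alone.

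Replication is prepared in G1, when the origin recognition complex, CDC6 and CDT1 load the ring-shaped MCM2-7 helicase onto origins. At S phase entry CDC45, the GINS complex and MCM10 turn that ring into a working helicase, primase and the polymerases extend the new strands, and the clamp PCNA, loaded by the RFC complex, holds the polymerases on DNA. Most of these genes are transcribed late in G1 and in S phase under E2F transcription factors, which RB-family proteins hold in check and cyclin E with CDK2 releases. Their mRNA levels in a dividing culture follow the share of cycling cells. In a bulk library, fewer S phase cells and less RNA per cell cannot be told apart.

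With all 6 libraries, edgeR's quasi-likelihood test called 1 of the 41 genes lower under the Nrf2 KO label and 0 higher, at a Benjamini-Hochberg adjusted p under 0.05. That is 2.44% of the genes lower, against 3.45% of all genes tested that were called lower (4.83% higher and 8.28% in either direction). The count therefore lay near the background. At an unadjusted p under 0.05, 8 were lower and 0 higher, which is 19.5% lower, against 11.6% of all genes lower and 13.4% higher. By DESeq2 8 were lower and 0 higher (19.5% lower, against 9.02% of all genes lower and 10.9% higher). By limma-voom the counts were 1 and 0 (4.12% of all genes lower and 5.14% higher), and with upper-quartile scaling 2 were lower (4.08% of all genes). The median log2 fold change was -0.26, beside 0.04 over all genes tested, and 29 of the 41 values were negative. In 13 genes all 3 libraries labelled Nrf2 KO lay below all 3 control libraries, and in 0 genes above. That is 31.7%, beside 17.1% of all genes tested for each direction. The standard errors of the 41 fold changes ran from 0.13 to 0.55, with a median of 0.19.

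The number of calls turned on the replicate 1 libraries and on whether replicate numbers were paired, which the labels do not say. With the replicate number as a block, 7 genes were lower and 0 higher (17.1% lower, against 7.92% of all genes lower and 10.4% higher): Mcm3, Mcm10, Prim1, Pcna, Rpa2, Ccne1 and Ung. Without Nrf2 KO replicate 1, 10 were lower and 1 was higher (24.4% lower, against 14.5% of all genes lower and 15.6% higher). Without both replicate 1 libraries 19 were lower and 2 higher, which is 46.3% and 4.88%, against 22.1% of all genes lower and 24% higher. That fit kept only replicates 2 and 3 of each group, after replicate 1 was seen to stand apart. These were the closest libraries of each group (chi-square per degree of freedom 22.9 in the control and 14.3 labelled Nrf2 KO). Its standard errors and p-values leave out the spread of replicate 1 and are not stronger evidence than those of all 6 libraries. Without any 1 of the other 5 libraries 0 genes passed by edgeR in either direction, with 2 to 7 lower (4.88% to 17.1%) and 0 higher at an unadjusted p under 0.05, against 6.84% to 9.02% of all genes lower and 8.18% to 10.9% higher at that p. In these 5 fits, 2.09%, 2.02% and 1.3% of all genes were called in either direction without control replicate 1, 2 or 3, and 2.53% and 2.56% without Nrf2 KO replicate 2 or 3.

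**Figure D1:**
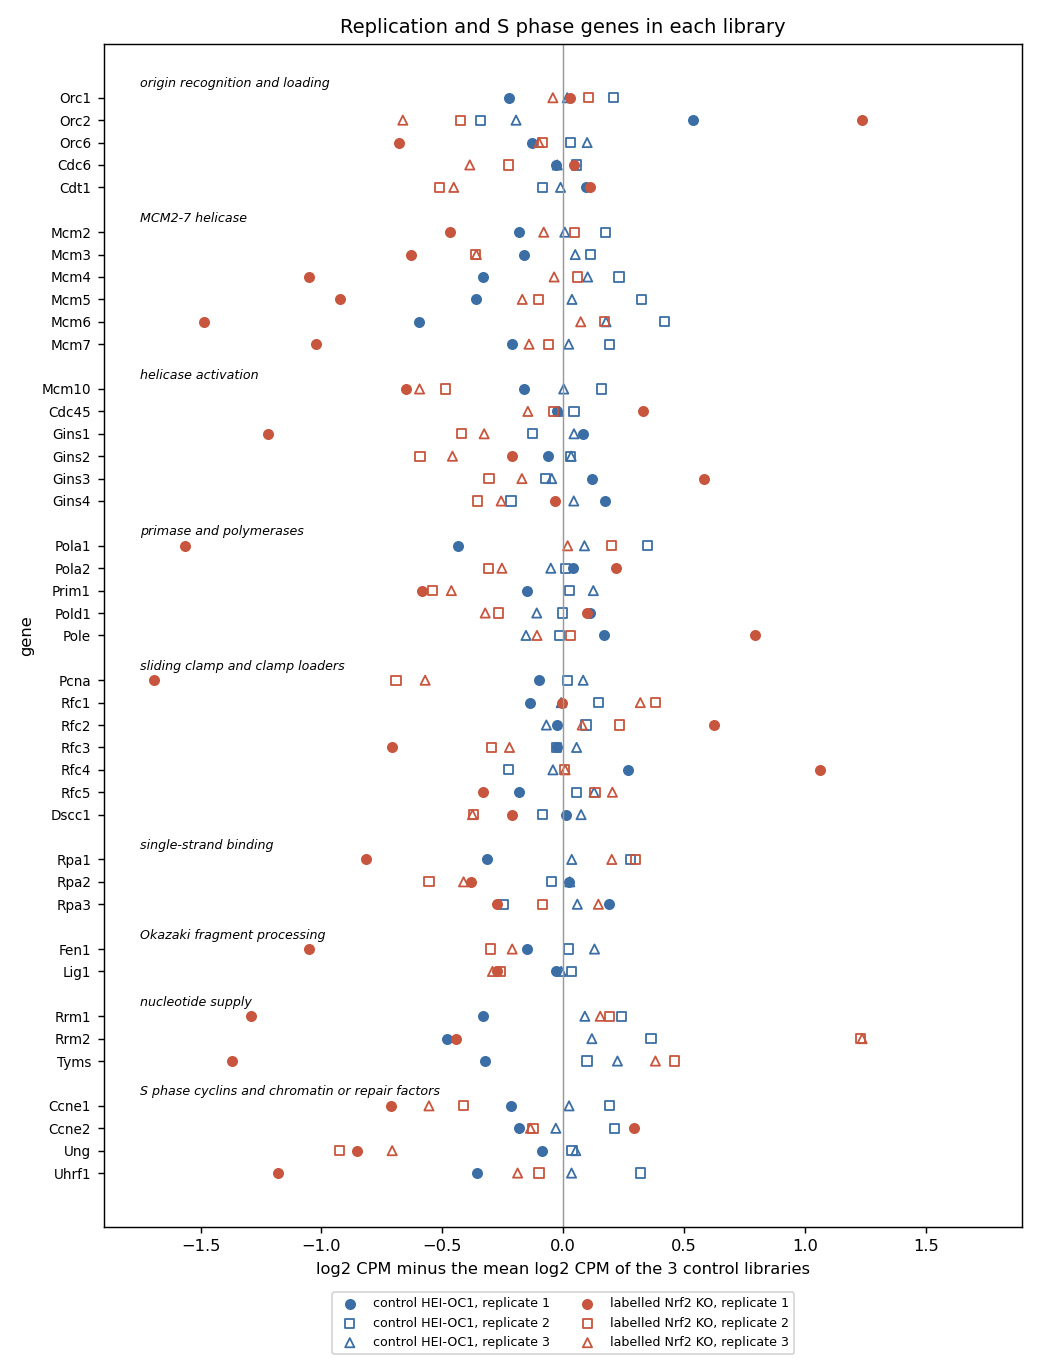
Level of each of the 41 genes in each library, as log2 CPM minus the mean log2 CPM of the 3 control libraries, grouped by role. Blue marks are control and red marks labelled Nrf2 KO libraries, and filled circles are replicate 1; the red filled circles lie far to the left for Mcm6, Pola1, Pcna, Rrm1 and Tyms and far to the right for Orc2 and Rfc4.

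Features of the promoters were not used to choose the genes. RefSeq windows in the mouse build GRCm38.p6, from 250 bases before to 50 bases after each listed start, were found for 33 of the 41 genes, 39 windows in all. E2F sites were searched as 4 words on both strands, TTTGGCGC, TTTCGCGC, TTTCCCGC and TTTGCCGC, which can overlap one another where a word on one strand runs into a word on the other. At least 1 of these words was in 13 of the 39 windows, 33.3%, and in 2.26% of all 32851 windows of the table. The windows of the table belong to 27025 genes and were not narrowed to the 14618 tested here. The 41 genes were all tested, so the 2 shares do not come from like sets. Among related genes listed for comparison, the share was 25.5% for other replication genes and 31.0% for regulators of S phase entry. It was 0.0% for replication checkpoint genes and 4.0% for G2 and mitosis genes. The shorter word CCAAT, bound by NF-Y, was in 64.1% of the windows of the 41 genes, beside 37.4% of all windows. In the related lists, in the same order, it was in 40.4%, 41.4%, 30.8% and 80.0%. The words TTTGAA and TTCGAA, known as CHR elements of late cell cycle genes, were in 15.4% of the windows of the 41 genes. The share was 19.2% of all windows and 76.0% of the windows of the G2 and mitosis genes. A match describes letters in a reference sequence and is neither a site shown to be bound nor a cause.

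The stretches before the start that hold E2F words are printed for 5 genes whose levels were low in replicate 1 of both groups (Mcm5, Mcm6, Mcm7, Pola1 and Uhrf1) and for 3 that were not (Orc1, Cdc6 and Gins3), since the word was present in both kinds. Capitals mark the words, and each run reads 5′ to 3′ along the gene's strand.
Mcm5, chr8:75109336-75109387, plus strand: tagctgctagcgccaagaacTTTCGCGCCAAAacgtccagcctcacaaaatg
Mcm6, chr1:128359725-128359835, minus strand: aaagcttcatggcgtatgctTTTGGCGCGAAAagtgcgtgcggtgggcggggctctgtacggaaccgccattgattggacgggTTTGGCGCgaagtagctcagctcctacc
Mcm7, chr5:138172021-138172068, minus strand: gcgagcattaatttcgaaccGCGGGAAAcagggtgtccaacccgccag
Pola1, chrX:93632266-93632313, minus strand: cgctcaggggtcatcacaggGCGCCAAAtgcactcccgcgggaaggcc
Uhrf1, chr17:56304108-56304155, plus strand: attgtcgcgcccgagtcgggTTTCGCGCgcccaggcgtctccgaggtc
Orc1, chr4:108579407-108579453, plus strand: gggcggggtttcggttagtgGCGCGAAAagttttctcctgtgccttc
Cdc6, chr11:98907993-98908040, plus strand: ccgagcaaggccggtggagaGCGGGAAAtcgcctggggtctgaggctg
Gins3, chr8:95633498-95633545, plus strand: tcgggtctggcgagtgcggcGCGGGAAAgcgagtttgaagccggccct
Mcm5 and Mcm6 each hold a pair of overlapping words read on opposite strands, and Mcm6 has another single word nearer the listed start. Bases just after the listed start were found in an annotated transcript for the other printed genes. For Mcm5 and Mcm6 they were not, so their starts are less certain. Of the 20 genes lowest in replicate 1 of both groups, 19 had a window and 6 of these a word; of the 8 highest in replicate 1 of both groups, 6 had a window and 3 of these a word. Ung, Pcna, Mcm10, Prim1, Rpa2 and Ccne1 had windows without these letters.

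Among the 5 origin recognition and loading genes, 0 passed, with log2 fold changes from -0.27 to 0.26 and a median of -0.18. Orc6, a subunit of the origin recognition complex, was at 60.0, 66.9 and 70.2 CPM in control replicates 1, 2 and 3 and 40.9, 61.8 and 61.2 CPM in the same numbers labelled Nrf2 KO. Nrf2 KO replicate 1 was the lowest library and the groups overlapped, with a log2 fold change of -0.27 (SE 0.20, adjusted p = 0.478). Its value without Nrf2 KO replicate 1 was -0.10 (SE 0.11, adjusted p = 0.503). Cdt1, which brings the helicase to origins, was at 129, 113 and 119 CPM in control replicates 1, 2 and 3 and 129.8, 84.3 and 87.9 CPM in the same numbers labelled Nrf2 KO. Nrf2 KO replicate 1 was the highest library, while replicates 2 and 3 labelled Nrf2 KO lay below all 3 control libraries. The fold change was -0.26 (SE 0.21, adjusted p = 0.51) with all libraries and -0.43 (SE 0.08, adjusted p = 0.00346) without both replicate 1 libraries. Orc2, another subunit, singled out after its values were seen, was at 86.8, 47.2 and 52.3 CPM in the control and 141, 44.6 and 37.8 CPM in those labelled Nrf2 KO. Its replicate 1 was the highest library in each group. Orc2 differed by 0.26 (SE 0.55) with all libraries and by -0.27 without both replicate 1 libraries, so its direction turned. Cdc6 joined the calls only in the fit without both replicate 1 libraries, at -0.32 (SE 0.09, adjusted p = 0.0253), among the 15 alternatives run.

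Every one of the 6 MCM2-7 helicase genes had a negative log2 fold change, from -0.45 to -0.16, and 0 of them passed with all 6 libraries; over the 15 alternatives 1 sign turned, that of Mcm6, to 0.06 without Nrf2 KO replicate 1. Mcm3 was at 110.1, 133.5 and 128 CPM in control replicates 1, 2 and 3 and 79.8, 95.85 and 96.2 CPM in the same numbers labelled Nrf2 KO. All 3 libraries labelled Nrf2 KO lay below the 3 control libraries. The means were 124 ± 12.2 against 90.6 ± 9.34 CPM (SD, n = 3 each), a log2 fold change of -0.45 (SE 0.16, adjusted p = 0.138), and the blocked fit passed it (adjusted p = 0.0463, range over the 15 alternatives 0.00284 to 0.436). Mcm4 was at 240.4, 355 and 325 CPM in control replicates 1, 2 and 3 and 146, 316 and 295 CPM in the same numbers labelled Nrf2 KO. Replicate 1 was the lowest library of each group, the groups overlapped, and the fold change was -0.28 (SE 0.33, adjusted p = 0.671). The log2 fold change of Mcm4 was -0.01 (SE 0.18, adjusted p = 0.969) without Nrf2 KO replicate 1, and without both replicate 1 libraries -0.15 (SE 0.09, adjusted p = 0.213). In Mcm2, Mcm5, Mcm6 and Mcm7 too, replicate 1 was lowest in each group and the groups overlapped. Without Nrf2 KO replicate 1 the fold changes of these 4 genes were -0.03, -0.17, 0.06 and -0.11, and without both replicate 1 libraries -0.10, -0.32, -0.18 and -0.20, of which Mcm5 passed (adjusted p = 0.0436). Of these, Mcm6 was at 161, 325 and 275 CPM in the control and 86.95, 274 and 256 CPM in those labelled Nrf2 KO, with replicate 1 far below replicates 2 and 3 in each group.

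Of the 6 helicase activation genes 0 passed and 4 were negative, with a median of -0.31. Mcm10, which acts when the loaded helicase starts to unwind, was at 51.9, 64.9 and 58.2 CPM in control replicates 1, 2 and 3 and 37.1, 41.5 and 38.5 CPM in the same numbers labelled Nrf2 KO. The groups were separate and each was close-set, at 58.4 ± 6.50 against 39.0 ± 2.24 CPM (SD, n = 3 each). Its log2 fold change of -0.58 (SE 0.15, adjusted p = 0.0642) missed the threshold with all libraries and passed with the block (adjusted p = 0.0297, range over alternatives 0.00154 to 0.272). Gins1, a GINS subunit, was at 78.8, 68.3 and 76.85 CPM in control replicates 1, 2 and 3 and 31.95, 55.6 and 59.4 CPM in the same numbers labelled Nrf2 KO. Nrf2 KO replicate 1 was by far the lowest, and replicates 2 and 3 also lay below the control. Its fold change was -0.61 (SE 0.25, adjusted p = 0.202), -0.38 (SE 0.11, adjusted p = 0.0437) without Nrf2 KO replicate 1, and -0.33 (SE 0.09, adjusted p = 0.0197) without both replicate 1 libraries. Gins2 followed at -0.41 (SE 0.15, adjusted p = 0.16), again with no overlap between the groups. Cdc45, Gins3 and Gins4, the other helicase cofactors, overlapped between groups, with fold changes of 0.06, 0.09 and -0.22.

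For the primase and polymerase genes, 0 of 5 passed and the median was -0.15. Prim1, the catalytic subunit of primase, was at 155, 175 and 187.5 CPM in control replicates 1, 2 and 3 and 115, 118 and 125 CPM in the same numbers labelled Nrf2 KO. The 3 libraries labelled Nrf2 KO were close to one another and below every control library. The means of 172.5 ± 16.4 against 119 ± 5.08 CPM (SD, n = 3 each) gave a log2 fold change of -0.53 (SE 0.15, adjusted p = 0.0792), and the blocked adjusted p was 0.0385 (range over alternatives 0.00082 to 0.349). Its partners in the polymerase alpha complex overlapped between groups. Pola1, the catalytic subunit, was at 63.3, 109 and 91.0 CPM in the control and 28.9, 98.3 and 86.7 CPM in those labelled Nrf2 KO, with replicate 1 lowest in each group. Pole, the catalytic subunit of the leading-strand polymerase, had a positive log2 fold change of 0.29 (SE 0.27, adjusted p = 0.58). It was at 116, 102 and 92.6 CPM in the control and 178, 105 and 95.6 CPM in those labelled Nrf2 KO, with replicate 1 highest in each group. Without Nrf2 KO replicate 1 the value was 0.07 for Pola1 and -0.05 for Pole.

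Members of the clamp and clamp loader group went in both directions: 3 of 7 were negative, 4 positive, and 0 passed. Pcna, the sliding clamp, had the most negative fold change of the 41 genes. It was at 312, 339 and 355 CPM in control replicates 1, 2 and 3 and 104, 207 and 225 CPM in the same numbers labelled Nrf2 KO. Every library labelled Nrf2 KO lay below every control library, and replicate 1 was lower than replicates 2 and 3. The means were 335 ± 21.3 against 179 ± 65.7 CPM (SD, n = 3 each), a log2 fold change of -0.91 (SE 0.31, adjusted p = 0.134). The blocked fit passed it (adjusted p = 0.0465, range over alternatives 0.000731 to 0.381), and without both replicate 1 libraries the fold change was -0.68 (SE 0.09, adjusted p = 0.000731). Processed pseudogenes of Pcna exist in the mouse genome and could share its reads, so its level is uncertain. The RFC subunits of the loader lay on both sides of 0. Rfc1, Rfc2, Rfc4 and Rfc5 had fold changes of 0.24, 0.33, 0.44 and 0.01, and Rfc3 had -0.39; Rfc1 passed, as higher, in the fit without both replicate 1 libraries, at 0.28 (SE 0.09, adjusted p = 0.0284). Rfc4 was at 113.5, 80.6 and 91.55 CPM in the control and 197, 94.7 and 94.8 CPM in those labelled Nrf2 KO, with replicate 1 highest in each group. Without Nrf2 KO replicate 1 its value was -0.01, and that of Rfc2 0.15. Dscc1, part of an alternative loader used in sister chromatid cohesion, was at 53.85, 50.4 and 56.3 CPM in the control and 46.2, 41.4 and 41.2 CPM in those labelled Nrf2 KO, with no overlap and a fold change of -0.32 (SE 0.13, adjusted p = 0.206).

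The 3 subunits of RPA, the single-strand binding complex, had log2 fold changes from -0.45 to -0.05, and 0 passed. Rpa2 was at 90.2, 85.8 and 90.5 CPM in control replicates 1, 2 and 3 and 68.1, 60.5 and 66.7 CPM in the same numbers labelled Nrf2 KO. The groups were separate, with a log2 fold change of -0.45 (SE 0.13, adjusted p = 0.0872) and a blocked adjusted p of 0.0443 (range over alternatives 0.00133 to 0.347). Rpa1, the large subunit, was at 104.5, 158 and 133 CPM in control replicates 1, 2 and 3 and 73.9, 159.9 and 149 CPM in the same numbers labelled Nrf2 KO. Its groups overlapped, replicate 1 was lowest in both, and the fold change was -0.05 (SE 0.33, adjusted p = 0.956), turning to 0.23 without Nrf2 KO replicate 1. Rpa3 overlapped as well, at -0.07. The difference between the subunits' fold changes was not tested.

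Both Okazaki fragment genes were negative and neither passed. Lig1, the ligase that seals the fragments, was at 138, 145 and 140.3 CPM in control replicates 1, 2 and 3 and 117, 118 and 115 CPM in the same numbers labelled Nrf2 KO. The 2 groups did not overlap and each was tight, at 141 ± 3.17 against 117 ± 1.37 CPM (SD, n = 3 each). The log2 fold change of -0.27 (SE 0.13, adjusted p = 0.251) did not pass, and DESeq2 gave an adjusted p of 0.014 (range over alternatives 0.014 to 0.575). Fen1, the flap nuclease, was at 72.6, 81.8 and 88.2 CPM in the control and 38.85, 65.4 and 69.7 CPM in those labelled Nrf2 KO, also without overlap, with a fold change of -0.48 (SE 0.25, adjusted p = 0.293). The value for Fen1 was -0.26 (SE 0.12, adjusted p = 0.131) without Nrf2 KO replicate 1, and without both replicate 1 libraries it was called lower, at -0.33 (SE 0.08, adjusted p = 0.0141). Lig1 was called lower in that fit as well, at -0.29 (SE 0.08, adjusted p = 0.0178).

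The nucleotide supply genes held the largest positive fold change of the 41. Rrm2, the regulated small subunit of ribonucleotide reductase, was at 505, 907 and 766 CPM in control replicates 1, 2 and 3 and 518, 1656 and 1662 CPM in the same numbers labelled Nrf2 KO. Replicates 2 and 3 labelled Nrf2 KO were the highest libraries, and Nrf2 KO replicate 1 lay among the control values, so the groups overlapped. Rrm2 did not pass with all libraries, at 0.82 (SE 0.48, adjusted p = 0.367), nor with the block (adjusted p = 0.129). It was higher without Nrf2 KO replicate 1, at 1.19 (SE 0.24, adjusted p = 0.0155), and without both replicate 1 libraries, at 0.99 (SE 0.11, adjusted p = 0.000392), within a range over the 15 alternatives of 0.000392 to 0.634. Rrm1, the large subunit of the same enzyme, was at 296, 439 and 396 CPM in the control and 152, 425 and 413.5 CPM in those labelled Nrf2 KO. It did not pass in any of the 15 alternatives, with fold changes from -0.41 to 0.15. Tyms, thymidylate synthase, was at 14.6, 19.5 and 21.3 CPM in the control and 7.05, 25.1 and 23.75 CPM in those labelled Nrf2 KO, again with replicate 1 lowest in each group; a processed pseudogene makes its level uncertain too.

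Ung was the single gene of the 41 to pass with all 6 libraries. It encodes the glycosylase that removes uracil from DNA, with a nuclear form that works at replication forks. Ung was at 53.3, 58.1 and 58.8 CPM in control replicates 1, 2 and 3 and 31.35, 29.8 and 34.7 CPM in the same numbers labelled Nrf2 KO. Every library labelled Nrf2 KO lay below every control library, and Nrf2 KO replicate 1 lay between replicates 2 and 3. The means were 56.7 ± 2.98 against 32.0 ± 2.49 CPM (SD, n = 3 each), with a log2 fold change of -0.83 (SE 0.14, adjusted p = 0.0187), where edgeR's p is adjusted over all genes tested. Ung passed in 10 of the 15 alternatives (adjusted p from 5.51e-09 to 0.137) and missed without any 1 of the 5 libraries other than Nrf2 KO replicate 1, with fold changes from -0.89 to -0.78 throughout.

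Of the other S phase factors, Ccne1 and Ccne2 encode cyclin E, the partner of CDK2 at S phase entry; the difference between their fold changes was not tested. Ccne1 was at 28.7, 38.2 and 33.95 CPM in the control and 20.4, 25.1 and 22.7 CPM in those labelled Nrf2 KO, with no overlap, a fold change of -0.56 (SE 0.17, adjusted p = 0.102) and a blocked adjusted p of 0.0343 (range over alternatives 0.00318 to 0.348). Ccne2 was at 68.0, 89.6 and 75.6 CPM in the control and 94.7, 70.85 and 70.3 CPM in those labelled Nrf2 KO, overlapping, at 0.02 (SE 0.19). Uhrf1, which guides maintenance DNA methylation behind the fork, was at 147, 234 and 192 CPM in control replicates 1, 2 and 3 and 82.7, 175 and 164.5 CPM in the same numbers labelled Nrf2 KO. Replicate 1 was lowest in each group and the fold change was -0.44 (SE 0.33, adjusted p = 0.484). Its value was -0.17 (SE 0.20, adjusted p = 0.529) without Nrf2 KO replicate 1, and without both replicate 1 libraries it was called lower, at -0.32 (SE 0.11, adjusted p = 0.042). Ccne1 lies outside the rule for genes given in full and was taken up after its values were seen, as were Orc2, Mcm6, Gins2, Pola1, Pole, Rfc4, Dscc1, Fen1, Rrm1, Tyms and Ccne2.

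**Figure D2:**
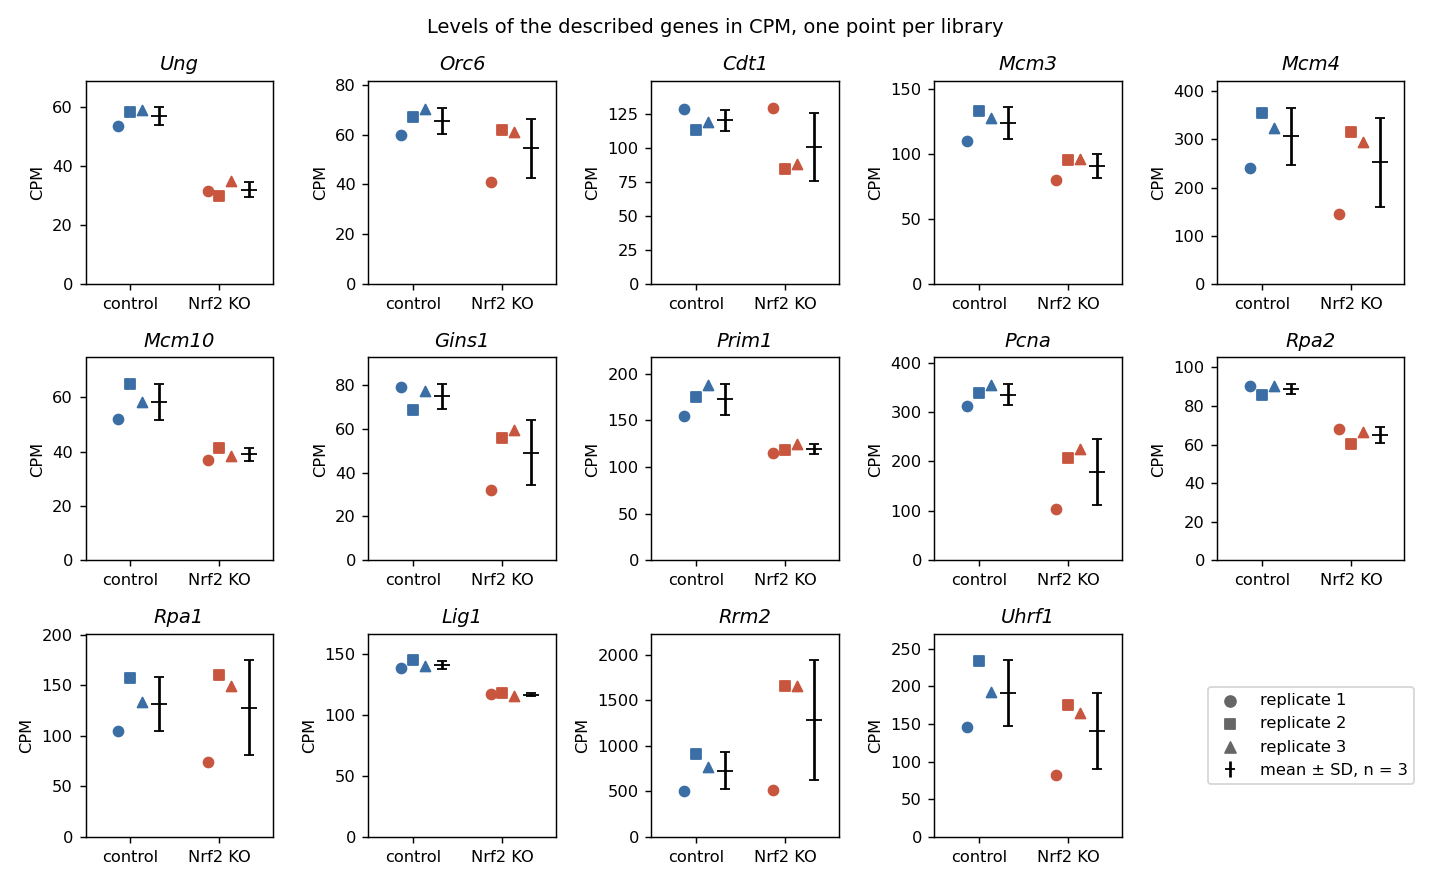
Level in CPM of the 14 genes given in full, with a linear axis from 0, 1 point per library (circle, square and triangle for replicates 1, 2 and 3) and the mean ± SD of 3 libraries beside each group. Ung, Mcm10, Prim1, Rpa2 and Lig1 show separate, close-set groups, while Rrm2, Mcm4 and Rpa1 show replicate 1 far below replicates 2 and 3 labelled Nrf2 KO.

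**Figure D3:**
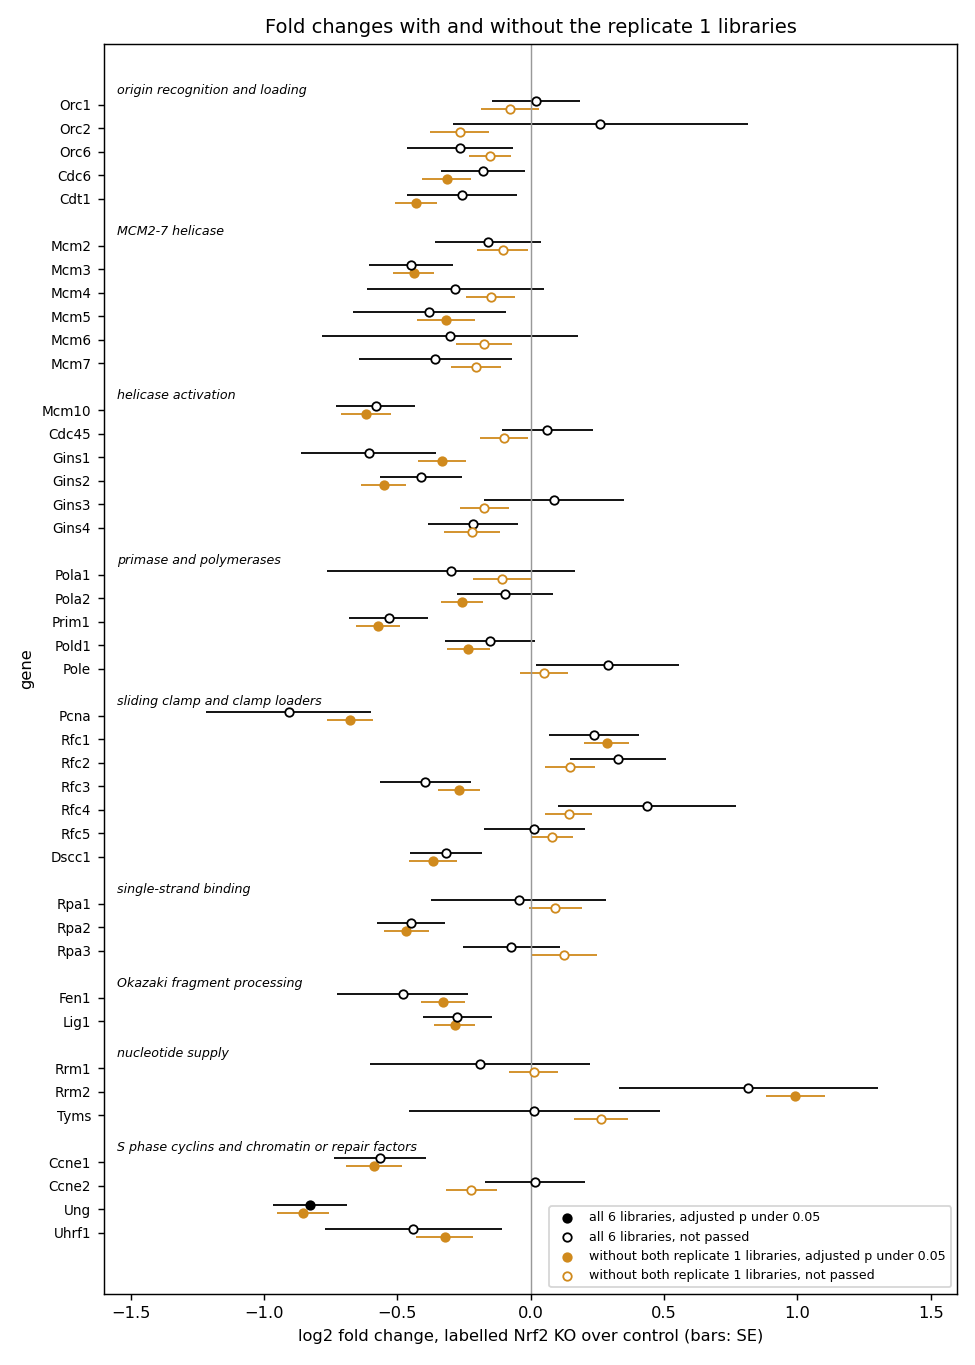
Log2 fold change of each gene, labelled Nrf2 KO over control, with bars for the SE. Black is from all 6 libraries and orange without both replicate 1 libraries, which leaves 2 libraries per group. Filled points have an adjusted p under 0.05. Ung is the 1 filled black point, and 19 genes to the left and 2 to the right of 0 are filled in orange.

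Set number against number, the 41 genes leaned lower in each of the 3 replicate numbers, which share no library. The log2 CPM of the library labelled Nrf2 KO was below that of the control for 28, 32 and 31 genes in numbers 1, 2 and 3, with median differences of -0.41, -0.25 and -0.20. Over all genes tested these medians were 0.013, -0.012 and -0.0043. In 23 genes the difference was negative in all 3 numbers, 56.1%, beside 30.5% of all genes tested, and in 5 it was positive in all 3, 12.2%, beside 30.3%. The 23 included all 6 MCM2-7 genes, Mcm10 (-0.49, -0.65 and -0.60), Prim1 (-0.43, -0.57 and -0.59), Pcna (-1.59, -0.71 and -0.65), Rpa2 (-0.41, -0.50 and -0.44) and Ung (-0.77, -0.96 and -0.76). Rrm2 was positive in all 3, at 0.04, 0.87 and 1.12. These counts describe the libraries and carry no test.

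Replicate 1 was compared with replicates 2 and 3 inside each group. It was the lowest of the 3 libraries in both groups for 20 of the 41 genes, 48.8%, beside 36.4% of all genes tested, and the highest in both for 8, 19.5%, beside 35.0%. All 6 MCM2-7 genes and all 3 nucleotide supply genes were lowest in replicate 1 of both groups. The median shift of replicate 1 from the mean of replicates 2 and 3 was -0.41 in the control and -0.85 in the libraries labelled Nrf2 KO for the MCM2-7 genes, and -0.50 and -1.68 for nucleotide supply. Orc2 shifted by 0.81 and 1.78 and Rfc4 by 0.40 and 1.05, the other way. Across the 41 genes the shifts in both groups had a Pearson's r of 0.844, beside 0.754 over all genes tested; genes of 1 library share its depth and are not independent, so no p is given. The part of this split in the group difference was not tested beyond the fits without these libraries.

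**Figure D4:**
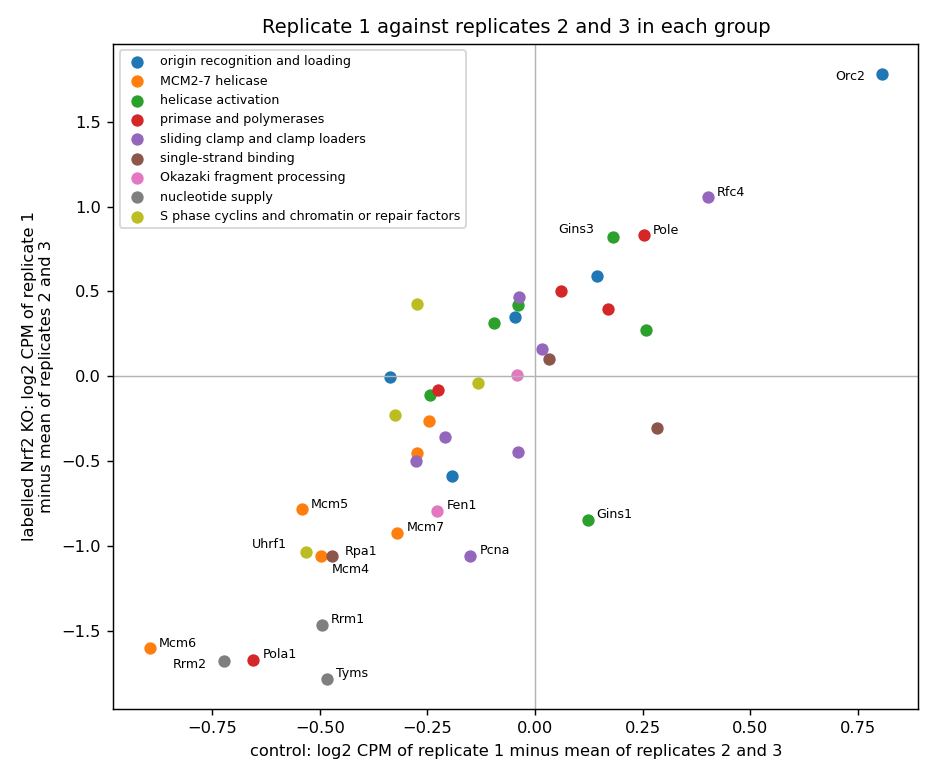
Shift of replicate 1 from the mean of replicates 2 and 3 in log2 CPM, control on the horizontal and labelled Nrf2 KO on the vertical axis, 1 point per gene, coloured by role. The MCM2-7 and nucleotide supply genes lie in the lower left, and Orc2, Rfc4, Pole and Gins3 in the upper right.

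Levels between genes can be set side by side only per length, as in the authors' deposited table of FPKM, which has 1 value per group. In the authors' deposited table the control FPKM of the MCM2-7 subunits ran from 34.8 for Mcm3 to 90.8 for Mcm7, with 55.2, 74.7, 54.4 and 71.8 for Mcm2, Mcm4, Mcm5 and Mcm6. The highest FPKM of the 41 genes in the authors' deposited table were Pcna (238 in the control and 124 in the group labelled Nrf2 KO) and Rrm2 (236 and 406). Their control values are close and come without a spread, so they cannot be ranked in the control. Neither gene passed with all 6 libraries. Orc1 was lowest, at 4.42 and 4.38 in the authors' deposited table. Within the GINS complex the same table gives 59.9, 10.9, 13.0 and 46.1 FPKM for Gins1 to Gins4 in the control. Of the 30438 symbols 650 begin with RGD, a prefix of rat genes, although the cells are mouse. What this does to levels between genes was not tested, so these orders are uncertain.

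Lists of related genes were read from the same fit. Of 49 other replication genes, 2 were higher and 0 lower (4.83% and 3.45% of all genes tested), with a median of -0.12. That median was -0.00018 without control replicate 2 and -0.07 without Nrf2 KO replicate 1. The first was Dbf4, the activator of the CDC7 kinase that fires origins, at 55.9, 47.4 and 52.3 CPM in the control and 111, 90.4 and 92.7 CPM in those labelled Nrf2 KO. Its log2 fold change was 0.92 (SE 0.15), with an adjusted p of 0.018 and a range of 8.01e-07 to 0.126 over alternatives. The other was Orc4, a further subunit of the origin recognition complex, at 67.7, 68.2 and 65.4 CPM in the control and 132, 99.15 and 108 CPM in those labelled Nrf2 KO. Its value was 0.75 (SE 0.16), with an adjusted p of 0.0361 and a range of 0.000174 to 0.207, and it missed the threshold with upper-quartile scaling (adjusted p = 0.0561), library size alone (0.0649) and no filter (0.0551). In both genes the groups did not overlap. DESeq2 called 3 of the 49 higher and 5 lower (10.9% and 9.02% of all genes tested). With the block 2 of the 49 were higher and 4 lower (10.4% and 7.92% of all genes). Without both replicate 1 libraries 8 were higher and 14 lower (24% and 22.1% of all genes).

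Of 26 regulators of S phase entry, 1 was higher and 0 lower, with a median of -0.12, which was -0.07 without control replicate 2 and also without Nrf2 KO replicate 1. This was Lin54, a DNA-binding subunit of a complex that represses or activates cell cycle genes, at 36.95, 45.1 and 41.6 CPM in the control and 68.9, 70.3 and 69.7 CPM in those labelled Nrf2 KO. Its groups did not overlap, and its log2 fold change was 0.76 (SE 0.14), with an adjusted p of 0.0247 and a range of 3.86e-07 to 0.163. Dbf4, Orc4 and Lin54 each missed the threshold without any 1 library other than Nrf2 KO replicate 1. At an unadjusted p under 0.05, 2 regulators were higher and 6 lower (13.4% and 11.6% of all genes tested). DESeq2 called 2 higher and 5 lower (10.9% and 9.02%), and limma-voom 1 and 2 (5.14% and 4.12%). The 2 lower by limma-voom were Myc and Mybl2, singled out after their values were seen. By edgeR they had -1.25 (SE 0.30, adjusted p = 0.058) and -0.57 (SE 0.13, adjusted p = 0.0505). With the block 2 regulators were higher and 4 lower (10.4% and 7.92%), and without both replicate 1 libraries 5 and 8 (24% and 22.1%).

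Checkpoint and mitotic genes had positive medians. Of 13 replication checkpoint genes edgeR called 0 (also 0 at an unadjusted p under 0.05, 0 by limma-voom and 0 by DESeq2), with a median of 0.19. The median was 0.021 without Nrf2 KO replicate 1 and 0.076 without both replicate 1 libraries. In the latter fit 3 genes were higher and 1 lower (24% and 22.1% of all genes tested). Wee1, a kinase that restrains CDKs, and Atr, the kinase that senses stalled forks, had the smallest p, at 0.36 (SE 0.18, adjusted p = 0.275) and 0.32 (SE 0.19, adjusted p = 0.366). Of 28 G2 and mitosis genes edgeR called 0, with 6 higher and 0 lower at an unadjusted p under 0.05 (13.4% and 11.6% of all genes). DESeq2 called 4 higher (10.9% of all genes) and limma-voom 1 (5.14%). The median was 0.25 (0.14 without Nrf2 KO replicate 2) and 20 values were positive. Ccnb2, a mitotic cyclin, was at 129.9, 136 and 141.5 CPM in the control and 198.5, 207.5 and 207 CPM in those labelled Nrf2 KO. Its log2 fold change was 0.59 (SE 0.14), with an adjusted p of 0.0504 and a range of 1.5e-08 to 0.247 over alternatives. Cenpf, a kinetochore protein, was at 153, 206 and 179 CPM in the control and 242, 369.5 and 324 CPM in those labelled Nrf2 KO, with 0.80 (SE 0.22), an adjusted p of 0.0814 and a range of 0.000694 to 0.311. Neither gene's groups overlapped. With the block 4 G2 and mitosis genes were higher and 0 lower (10.4% and 7.92% of all genes). Without both replicate 1 libraries 16 were higher and 1 lower (24% and 22.1% of all genes). The difference between this list and the 41 replication genes was not tested.

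**Figure D5:**
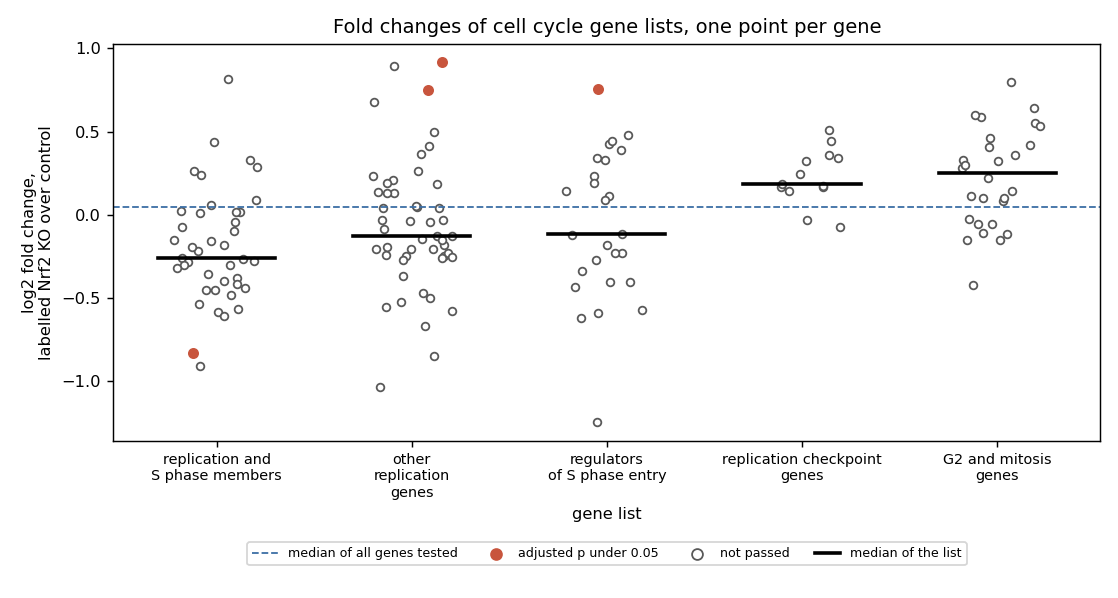
Log2 fold change with all 6 libraries for the 41 replication and S phase genes and the 4 lists of related genes, 1 point per gene; black bars are the list medians and the dashed line is the median of all genes tested. The medians are -0.26, -0.12, -0.12, 0.19 and 0.25 from left to right, and filled points, with an adjusted p under 0.05, number 1, 2, 1, 0 and 0.

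Some markers of other cell types differed between the groups. Of 8 tested fibroblast markers 5 were higher (Col1a1, Col1a2, Pdgfra, Thy1 and Postn) and 0 lower, beside 4.83% and 3.45% of all genes tested. Without any 1 library other than Nrf2 KO replicate 1, 4 were called higher. In those fits 1.3% to 2.56% of all genes were called in either direction. Of the 10 listed, 0 were at 0 counts throughout. The 10 summed to 5792 to 6878 CPM in the control and 6960 to 8981 CPM under the Nrf2 KO label. Col3a1, the largest part of the control sum, was at 4179, 4837 and 4340 CPM in the control and 2874, 2928 and 2660 CPM under the Nrf2 KO label. Its groups did not overlap, at -0.66 (SE 0.19, adjusted p = 0.092), and it was called lower by DESeq2 (adjusted p = 6.91e-06) and without both replicate 1 libraries (adjusted p = 0.00209). The 10 hair cell markers summed to 33.1 to 45.2 and 62.5 to 76.5 CPM, with Myo7a higher by 3.95 (SE 0.36, adjusted p = 0.00348) on the log2 scale. The 11 supporting and prosensory markers summed to 373 to 453 and 363 to 533 CPM, a sum that joins values of both signs. Sox9 was higher by 2.19 (SE 0.27, adjusted p = 0.0081), while Jag1 (0.57), Fgfr3 (-0.34) and Cdkn1b (-0.32) did not pass.

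The 6 leukocyte markers summed to 3.24 to 6.53 CPM and 2.73 to 14.8 CPM, with Adgre1 and Cd3e at 0 counts in all 6 libraries and 0 called. The 6 epithelial markers summed to 0.877 to 1.83 CPM in the control and 5.40 to 7.69 CPM under the Nrf2 KO label, with Krt8, Krt18 and Krt19 at 0 counts and Krt7 higher by 2.49 (SE 0.34, adjusted p = 0.0114). The 5 endothelial markers summed to 0.97 to 1.80 and 1.17 to 1.88 CPM, with Kdr at 0. Among them Erg was at most 0.0516 CPM in the control and 0.583 to 1.341 CPM under the Nrf2 KO label. It was called higher (edgeR adjusted p = 0.0186) but passed the low-count filter only through the libraries labelled Nrf2 KO. That call therefore gives no support for a difference. With a filter of 1 CPM in 3 libraries 0 endothelial markers were tested. The call was also lost without any 1 library other than Nrf2 KO replicate 1. Tek had -1.51 (edgeR adjusted p = 0.073). The part of these markers in the levels of the replication genes was not tested.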

How the data were processed

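Poly(A)-selected RNA of 3 control and 3 Nrf2 KO libraries was used. Per the submitters' processing notes, reads were handled with tools that included HISAT2, fastp, FastQC and DESeq2 1.34.0 (roles unstated) and the build hg18. That is a human build although the cells are mouse, so the genome used for alignment could not be settled. Annotation, counting tool and strand setting (not given in the sources used here) leave overlapping and antisense genes unseparated. The authors deposited whole-number counts per gene symbol, and FPKM as 1 value per group by an unstated route. The 41 genes and all lists were chosen with earlier results of these data known.

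Counts were fitted over the whole table with edgeR 4.0.16 in R 4.3.3: filterByExpr by group (minimum count 10, minimum total 15), TMM, robust quasi-likelihood test of group, two-sided, Benjamini-Hochberg over all 14618 genes, threshold 0.05. Levels are TMM-scaled CPM; log2 CPM used a prior count of 2. DESeq2 1.42.0 and limma-voom (limma 3.58.1), other scalings and filters, the replicate block and left-out libraries were alternatives. The fit was tested on simulated data without any split between replicate numbers, so that test does not cover the split of replicate 1. No 2 libraries of a group agreed within sampling noise (chi-square per degree of freedom at least 14.3).

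Deviations from the group means correlated across genes between same-numbered libraries at 0.754, 0.696 and 0.31, each above 0.1. The main fit was unpaired. Pairs by number were used only in the replicate block, an alternative, from the counts and not the labels. For control replicate 2 and Nrf2 KO replicate 3 the value was 0.539, above the 0.31 of the replicate 3 libraries. The deviations of a group cancel out, so the split of replicate 1 also shapes the values of replicates 2 and 3. These values therefore cannot show pairs other than replicate 1, and the blocked fit assumes such pairs. Given in full were called genes and, in each of 9 role groups, the gene with the smallest p and that with the highest mean CPM; in related lists up to 4 called genes, or the 2 with the smallest p. Promoters are from RefSeq (GRCm38.p6), not from these samples.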

Additional observations from a re-analysis of the deposited data

How the results depend on the processing

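The median log2 fold change of the 41 genes stayed between -0.31 and -0.16 in the 15 alternatives. The 7 genes called with the replicate block, Mcm3, Mcm10, Prim1, Pcna, Rpa2, Ccne1 and Ung, kept their direction in each. So did every other gene outside the list of sign turns below, so a kept direction does not set the 7 apart. The number called lower, 1 with all 6 libraries, was 2 with upper-quartile scaling, 8 by DESeq2, 7 with the replicate block and 19 without both replicate 1 libraries, and 0 to 10 with 1 library left out; the number called higher, 0, was 2 without both replicate 1 libraries and 0 to 1 with 1 library left out. Over the 4 related lists, 3 genes were higher and 0 lower. These counts were 9 and 10 by DESeq2, 8 and 8 with the replicate block and 32 and 24 without both replicate 1 libraries. With 1 library left out they were 0 to 19 and 0 to 17. The 19 and 17 were without Nrf2 KO replicate 1, where 15.6% of all genes were called higher and 14.5% lower. Without any other 1 library both counts were 0. Of all genes tested, DESeq2 called 10.9% higher and 9.02% lower, and the replicate block 10.4% and 7.92%. Without both replicate 1 libraries the shares of all genes were 24% and 22.1%. The number lower was also 2 with upper-quartile scaling, 1 with library size alone, 1 with a filter of 1 CPM and 2 by limma-voom. The cause was not tested.

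The smallest count of the 41 genes in any library was 221, for Tyms in Nrf2 KO replicate 1.

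Signs turned for 14 uncalled genes. With upper-quartile scaling the log2 fold changes were -0.034 (Ccne2), -0.034 (Orc1), -0.047 (Rfc5) and -0.056 (Tyms). Library size alone gave Rfc5 -0.014 and Tyms -0.037, no filter gave Ccne2 -0.0047 and Rfc5 -8.5e-05, limma-voom gave Rfc5 -0.00060 and Tyms -0.12, and the replicate block gave Tyms -0.15. Without both replicate 1 libraries they were -0.22 (Ccne2), -0.10 (Cdc45), -0.17 (Gins3), -0.077 (Orc1), -0.27 (Orc2), 0.093 (Rpa1), 0.13 (Rpa3) and 0.011 (Rrm1). With 1 library left out the values ran from -0.14 to 0.13 for Ccne2, -0.096 to 0.15 for Cdc45, -0.24 to 0.25 for Gins3, -0.56 to 0.058 for Mcm6, -0.086 to 0.13 for Orc1, -0.60 to 0.58 for Orc2 and -0.60 to 0.072 for Pola1. They ran from -0.047 to 0.45 for Pole, -0.011 to 0.61 for Rfc4, -0.087 to 0.16 for Rfc5, -0.24 to 0.23 for Rpa1, -0.19 to 0.024 for Rpa3, -0.41 to 0.15 for Rrm1 and -0.26 to 0.40 for Tyms.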
